A study of Arabidopsis thaliana with 6 samples.

Results

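The B-box proteins BBX20 to BBX32 are zinc-finger transcription regulators of seedling light responses, and 10 of them were followed here by locus (BBX20, BBX21, BBX22, BBX23, BBX24, BBX25, BBX28, BBX30, BBX31 and BBX32), out of 32548 genes listed in both deposited tables. The members were listed by locus, with earlier results of these data known, and all 10 were found in both tables. The RNA-seq libraries were made from Arabidopsis thaliana seedlings, either wild type Col-0, the common laboratory accession, or a line whose genotype label is epl1a/b(-/-). EPL1A and EPL1B are counterparts of Enhancer of polycomb proteins, which help to build the NuA4 histone acetyltransferase complex. There were 2 libraries of wild type and 2 of epl1a/b. A separate pair of wild type Col-0 libraries, 1 labelled dark and 1 labelled light, had no replicate. All seedlings grew on nutrient plates at 23 °C under 16 h of light and 8 h of dark, RNA was taken at 2 weeks of age, and plates for the dark library were wrapped in foil for a time that the labels do not give. The labels say neither which alleles the epl1a/b line carries nor whether replicates were separate cultures, so the tests speak of the spread among these libraries, which may be technical. The titles of both epl1a/b libraries carry the name of a histone mark (H4K5Ac), while their other labels describe total RNA, and they were used as RNA-seq.

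In darkness the ubiquitin ligase COP1, together with SPA proteins, removes factors that promote light-grown development, among them the bZIP factor HY5. In light HY5 accumulates and acts with B-box partners, some of which add activity to it and some of which hold it back. BBX20 to BBX25 carry a pair of B-boxes near the N terminus, whereas BBX28 to BBX32 carry 1 B-box, and BBX30 and BBX31 are microproteins consisting of little else. BBX20, BBX21, BBX22 and BBX23 are known as promoters of photomorphogenesis. BBX24, BBX25, BBX28, BBX30, BBX31 and BBX32 have been described as factors that limit photomorphogenesis or flowering, and are grouped here as limiting factors.

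Depth was close to equal in the genotype table, with 18796289 to 19088784 reads per library as recovered from the normalised values, and the dark and light libraries held 18798088 and 27831231 counts. EPL1A had a normalised count of 282 and 225 in wild type and 93.8 and 79.2 in the libraries labelled epl1a/b, 2.90-fold lower (limma adjusted p = 0.000233). EPL1B went against a loss of transcript, with 335 and 351 in wild type and 4656 and 4399 in epl1a/b, 13.2-fold higher (limma adjusted p = 7.41e-07), so directions are those of the libraries labelled epl1a/b. The summed normalised count of 3 leaf markers was 445939 to 494051 in wild type and 225860 to 231969 in epl1a/b. That of 5 root markers, the Casparian strip genes among them, was 2304 to 2446 and 1188 to 1495, and that of 9 seed storage and oil body genes was 6.2 to 7.4 and 48.9 to 74.2. Of these 9 genes 3 could be tested and 2 rose. They were SESA4, with 1.06 and 1.04 in wild type and 31.4 and 34.2 in epl1a/b, and CRA1, with 5.24 and 2.10 against 13.97 and 13.98. SESA1 had 24.4 in epl1a/b replicate 1 and 0 in every other library of this table. OLEO1 had 1.08 and 3.10 in wild type and 3.58 and 0.79 in epl1a/b. At 0 in all 4 libraries were CRC, SESA2, SESA3 and OLEO2. The part of tissue make-up in the results below was not tested, and fewer cells of a type cannot be told apart from less RNA per cell.

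The members lie on chromosomes 1, 2, 3 and 4. The microprotein genes BBX30 (AT4G15248, chr4:8708841-8709482, plus strand) and BBX31 (AT3G21890, chr3:7708833-7709933, minus strand) have 1 exon each, with 354 and 366 coding bases. BBX32 (AT3G21150, chr3:7412445-7413727, minus strand) also has 1 exon, with 678 coding bases. The members with a pair of B-boxes have 2 to 4 exons and 489 to 996 coding bases, the longest in BBX21 (AT1G75540, chr1:28365824-28367738, plus strand). Both microprotein genes stand beside a longer B-box gene on the opposite strand. BBX30 is 284 bases from BBX9, and BBX31 is 486 bases from BBX10. These neighbours were at or close to 0 in the genotype table, with at most 0.89 for BBX9 and at most 3.17 for BBX10. Coordinates are those of the RefSeq annotation of TAIR10.1, the release of TAIR10 used here for all positions.

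Upstream windows are shown for both microprotein genes, a pair of close relatives of which one was called and the other was not, for BBX24, the most abundant member, and for BBX20, the member with the largest rise. Each is the 250 bases before the annotated gene start in RefSeq TAIR10.1, written 5′ to 3′ on the gene's strand, and capitals mark every match to the G-box CACGTG, the T/G-box CACGTT or the ACGT core on either strand, the core being contained in both boxes. The windows are chr4:8708591-8708840 for BBX30 (plus strand), chr3:7709934-7710183 for BBX31 (minus strand), chr1:1829984-1830233 for BBX24 (minus strand) and chr4:18206685-18206934 for BBX20 (minus strand).
BBX30: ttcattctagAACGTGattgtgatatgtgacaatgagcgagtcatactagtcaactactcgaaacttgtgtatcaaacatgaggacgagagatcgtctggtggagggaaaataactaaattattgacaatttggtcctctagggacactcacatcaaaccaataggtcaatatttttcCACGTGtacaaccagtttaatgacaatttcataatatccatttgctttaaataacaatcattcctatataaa
BBX31: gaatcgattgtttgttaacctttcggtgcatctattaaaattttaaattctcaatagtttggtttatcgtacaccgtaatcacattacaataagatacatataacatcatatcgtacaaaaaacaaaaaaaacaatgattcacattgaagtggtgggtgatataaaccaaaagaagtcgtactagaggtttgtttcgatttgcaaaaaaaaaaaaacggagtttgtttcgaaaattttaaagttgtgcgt
BBX24: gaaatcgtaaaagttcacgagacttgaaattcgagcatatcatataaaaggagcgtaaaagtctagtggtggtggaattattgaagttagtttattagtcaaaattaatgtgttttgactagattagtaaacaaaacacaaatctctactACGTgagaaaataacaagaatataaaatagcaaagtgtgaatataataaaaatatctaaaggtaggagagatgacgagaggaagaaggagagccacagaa
BBX20: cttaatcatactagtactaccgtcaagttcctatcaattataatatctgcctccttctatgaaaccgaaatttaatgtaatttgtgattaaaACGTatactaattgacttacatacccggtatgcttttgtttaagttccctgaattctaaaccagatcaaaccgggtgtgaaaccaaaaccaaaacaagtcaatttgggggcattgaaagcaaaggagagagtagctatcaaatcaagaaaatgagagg
BBX30 held a G-box that starts 72 bases before the gene start and a T/G-box, read on the opposite strand, 240 bases before it. BBX31 held no ACGT in its window. BBX24 held an ACGT core 100 bases and BBX20 one 158 bases before the start. Among all 10 members, 1 window held a G-box, 1 a T/G-box and 4 an ACGT core. Of 27438 windows of the same length before protein-coding genes, 6.49% held a G-box, 7.54% a T/G-box and 44.1% an ACGT core. A match is a description of these letters and not a bound site.

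The first question was which B-box genes changed when the NuA4 subunit genes were mutated. In the libraries labelled epl1a/b, BBX20, BBX22, BBX31 and BBX32 rose, BBX25 fell, and BBX21, BBX24, BBX28 and BBX30 did not pass the test. BBX20 was 3.53-fold higher, BBX22 2.00-fold and BBX31 1.99-fold, while BBX32 and BBX25 moved by 1.34-fold up and 1.30-fold down. BBX23 was too low to be tested. Of 9 members tested, 4 were higher and 1 was lower at a limma adjusted p under 0.05 over all genes, while among the 23658 genes tested 46.7% passed, 22.5% higher and 24.1% lower. The median log2 change of the 9 tested members was 0.20, beside 0.02 for all genes tested. The share of members called is near the background share, so the count is not a result about the members.

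**Figure D1:**
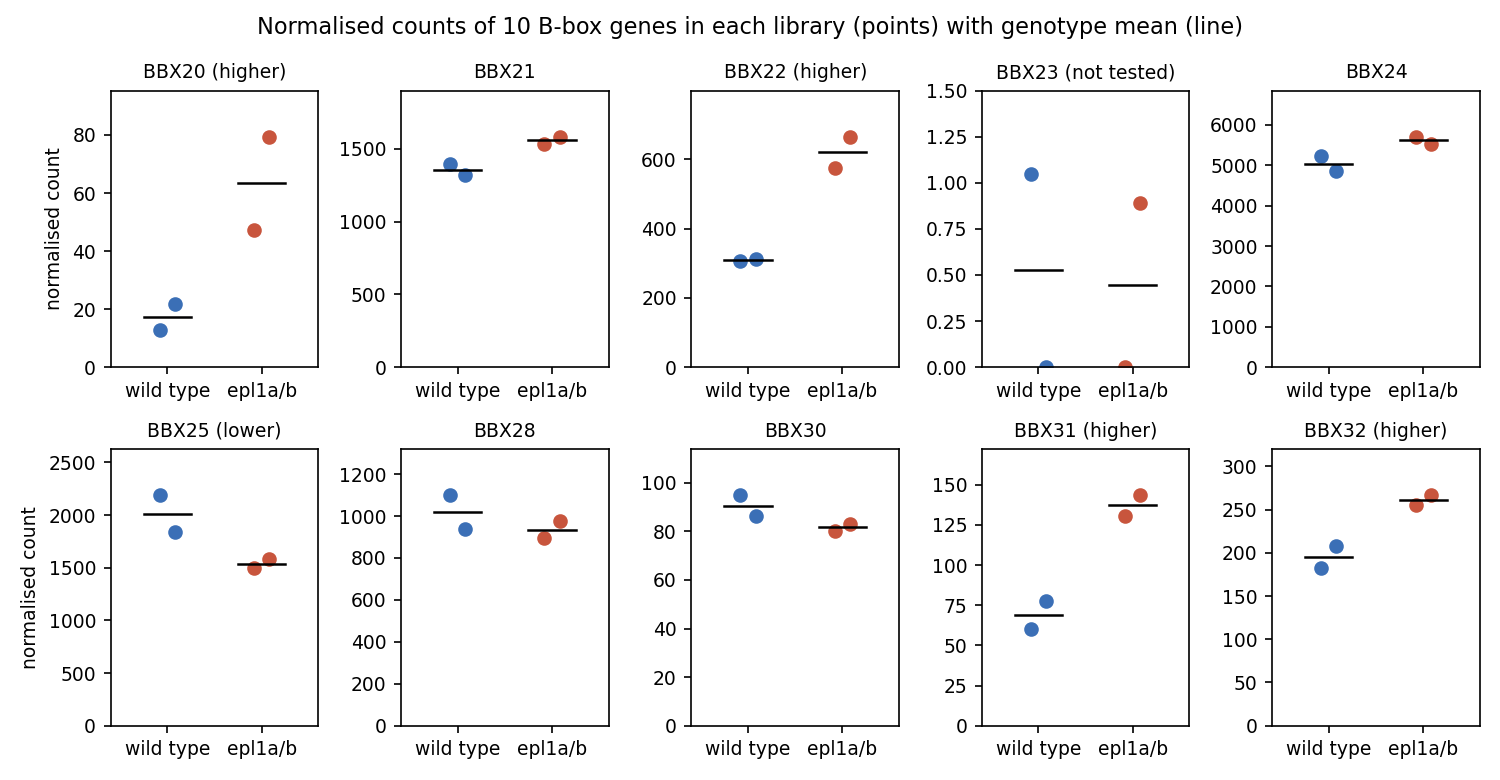
Normalised counts (y axis, from 0, a separate scale in each panel) of the 10 B-box genes in the 2 wild type (blue) and 2 epl1a/b (red) libraries, with the mean of each genotype as a black line. BBX22 lies at 306 and 313 in wild type and at 575 and 666 in epl1a/b, while both genotypes of BBX28 overlap.

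Among the promoting factors, BBX20, a B-box protein also known for reducing brassinosteroid responses, had normalised counts of 12.8 and 21.7 in wild type and 47.3 and 79.4 in epl1a/b. The genotypes did not overlap, although the libraries within each genotype lay apart. The gene is low, resting on 33 reads from wild type (12 and 21) and 145 from epl1a/b (55 and 90). Its log2 change was 1.82 ± 0.36 (SE, n = 2 each; limma adjusted p = 0.00501). Without wild type replicate 1 the call was lost (log2 change 1.46, limma adjusted p = 0.0686), as it was without epl1a/b replicate 2 (1.45, limma adjusted p = 0.0796).

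BBX22, a partner of HY5 that COP1 marks for degradation, had 306 and 313 in wild type and 575 and 666 in epl1a/b. Both mutant libraries stood well above both wild type libraries. Its log2 change was 1.00 ± 0.10 (SE, n = 2 each; limma adjusted p = 0.000171). BBX22 was the only one of the 5 called members that remained called under all 15 alternative settings, with log2 changes from 0.89 to 1.24 and adjusted p up to 0.0479.

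BBX21, which binds the HY5 promoter and promotes its transcription, had 1396 and 1320 in wild type and 1534 and 1585 in epl1a/b. The genotypes did not overlap, but the difference was small and did not pass, with a log2 change of 0.20 (95% interval 0.03 to 0.37; limma adjusted p = 0.0519). It crossed the threshold on the edgeR quasi-likelihood test of the recovered reads (adjusted p = 0.0487), with a filter of 10 (limma adjusted p = 0.0473) and on library totals (log2 change 0.44, limma adjusted p = 0.00148). BBX23, which acts with HY5 in light-grown seedlings, had 1 read in wild type and 1 read in epl1a/b, under the filter, which asked for 2 libraries with a value of 1 or more.

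Among the limiting factors, BBX31, a microprotein that can bind CONSTANS and bring in the corepressor TOPLESS, had 60.3 and 77.7 in wild type and 131 and 144 in epl1a/b. Its mutant libraries lay clearly above those of wild type. The log2 change was 0.99 ± 0.18 (SE, n = 2 each; limma adjusted p = 0.00358), and the call was lost without epl1a/b replicate 2 (0.92, limma adjusted p = 0.0564). BBX30, the other microprotein and the closest relative of BBX31, had 94.9 and 86.2 in wild type and 80.3 and 83.1 in epl1a/b. Its mutant libraries were slightly lower, by less than the test could resolve, with a log2 change of -0.15 (95% interval -0.54 to 0.25; limma adjusted p = 0.509). That value was 0.09 on library totals.

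The abundance of BBX30 relative to BBX31 was taken per kilobase of exon. The ratio was 2.71 and 1.90 in the wild type libraries and 1.05 and 0.993 in the epl1a/b libraries. On the log2 scale it went from 1.18 ± 0.36 to 0.03 ± 0.06 (SD, n = 2 each), a difference of -1.15 that does not depend on how the libraries are scaled. An exact permutation test, two-sided, gave p = 0.333, which is the smallest that 2 libraries against 2 can give, so a difference in this ratio could not be tested. In the separate Col-0 light library, also wild type and without a replicate, the ratio was 0.588, under both epl1a/b values. A high ratio was therefore not seen in every wild type library.

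BBX32, which interferes with the action of BBX21 and HY5, had 183 and 208 in wild type and 256 and 267 in epl1a/b. The genotypes did not overlap, and the rise was small, with a log2 change of 0.42 ± 0.12 (SE, n = 2 each; limma adjusted p = 0.0204). Leaving out wild type replicate 1 (0.32) or either epl1a/b library (0.45 and 0.39) ended this call, with limma adjusted p from 0.0856 to 0.119, and so did DESeq2 on the recovered reads (adjusted p = 0.107).

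BBX24 and BBX25 are close relatives that interfere with HY5. BBX25 had 2189 and 1840 in wild type and 1498 and 1581 in epl1a/b. Both mutant libraries were lower, with a log2 change of -0.38 ± 0.10 (SE, n = 2 each; limma adjusted p = 0.0127). Leaving out wild type replicate 1 ended the call (-0.26, limma adjusted p = 0.0723), as did leaving out either epl1a/b library (-0.34 and -0.42, limma adjusted p = 0.131 and 0.0904). It was also lost on library totals (-0.14, limma adjusted p = 0.217), a scaling under which the median gene itself had a log2 change of 0.25 instead of 0.02.

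BBX24 had 5237 and 4851 in wild type and 5711 and 5538 in epl1a/b. The mutant libraries were slightly higher without overlap, and the log2 change of 0.16 did not pass (95% interval -0.02 to 0.33; limma adjusted p = 0.119), although it did on library totals (0.40, limma adjusted p = 0.00253). The gene is partly uncertain, since 18.1% of its exon bases are overlapped by AT1G06045 on the other strand, which is listed at 0 in all libraries, and no source used here says whether reads were counted by strand. The ratio of BBX24 to BBX25 per kilobase of exon was 2.06 and 2.27 in wild type and 3.28 and 3.01 in epl1a/b. On the log2 scale that is 1.11 ± 0.10 against 1.65 ± 0.09 (SD, n = 2 each; two-sided exact permutation p = 0.333, again the smallest possible). In the separate wild type Col-0 libraries, without a replicate, the ratio was 3.1 in the light and 22 in the dark. The light value lies between those of the epl1a/b libraries. BBX28, which binds HY5 and keeps it from DNA, had 1100 and 937 in wild type and 893 and 975 in epl1a/b. These ranges overlapped, with a log2 change of -0.12 (95% interval -0.35 to 0.11; limma adjusted p = 0.339) that was 0.12 on library totals.

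**Figure D2:**
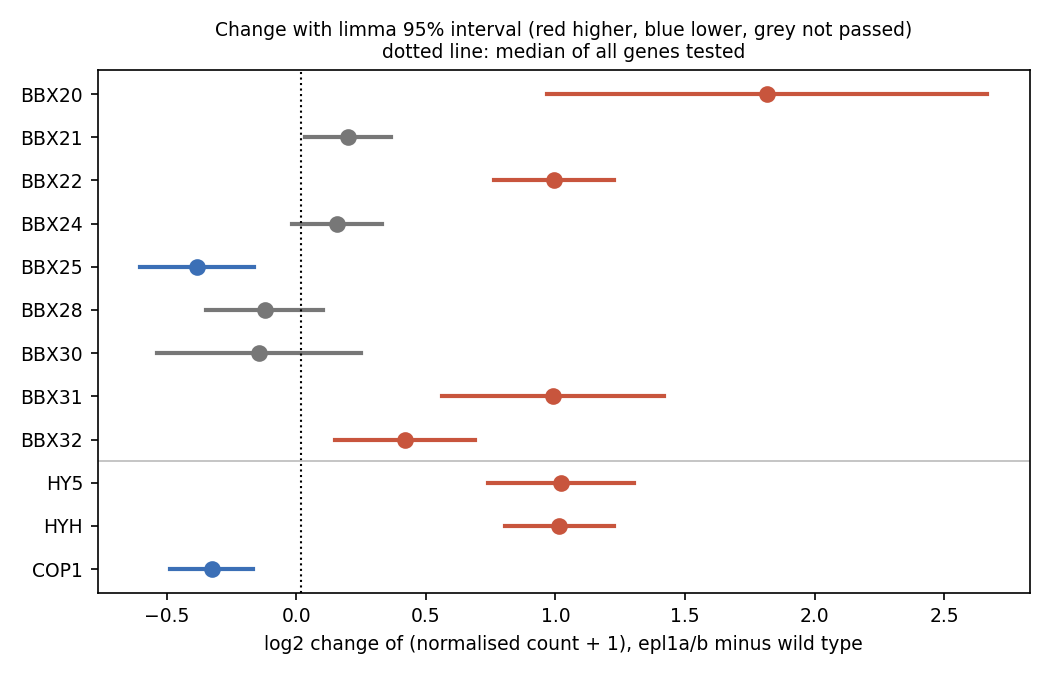
Log2 change of the normalised count plus 1 (x axis, epl1a/b minus wild type) for the 9 tested B-box genes and, under the grey line, HY5, HYH and COP1, with limma 95% intervals as bars, in red where higher, blue where lower and grey where the test was not passed, and the median of all genes as a dotted line. BBX22, BBX31, HY5 and HYH lie between 0.99 and 1.02, BBX20 lies at 1.82 with the widest interval, and BBX25 and COP1 lie at -0.38 and -0.33; on library totals the last 2 were at -0.14 and -0.09 and not called.

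Members of known role were spread over both outcomes. Of 3 tested promoting factors, 2 rose and 1 did not pass, and of 6 limiting factors, 2 rose, 1 fell and 3 did not pass. Sorted by structure, 2 of 5 tested genes with a pair of B-boxes rose and 1 fell, and 2 of 4 genes with 1 B-box rose. Among all genes tested 22.5% rose and 24.1% fell, and a pattern by role or structure was not tested. In 8 of the 9 tested members the genotypes did not overlap, beside 75.7% of all genes tested.

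The genes that act with these factors were also examined. HY5 had 336 and 309 in wild type and 585 and 734 in epl1a/b, and both mutant libraries were higher, with a log2 change of 1.02 ± 0.12 (SE, n = 2 each; limma adjusted p = 0.000404). HYH, its close relative, had 724 and 676 in wild type and 1319 and 1516 in epl1a/b, again without overlap, and a log2 change of 1.02 ± 0.09 (SE, n = 2 each; limma adjusted p = 9.16e-05). The COP1 values of 1211 and 1209 in wild type and 957 and 970 in epl1a/b gave a log2 change of -0.33 ± 0.07 (SE, n = 2 each; limma adjusted p = 0.00624). That fall was no longer called without epl1a/b replicate 1 (-0.32, limma adjusted p = 0.0513) or on library totals (-0.09). Of 15 light signalling partners, 3 rose and 7 fell, while 22.5% of all genes tested rose and 24.1% fell. The share of partners that rose is near the background and the share that fell is above it, a difference that was not tested. Some falls were small, as those of SPA4 (-0.285) and DET1 (-0.283), and only that of COP1 was followed on library totals. The median log2 change of the 15 partners was -0.27, beside 0.02 for all genes tested. The largest falls were SPA3 (-0.80) and SPA2 (-0.66), which encode partners of COP1. SPA1, of the same family, did not pass (-0.09, limma adjusted p = 0.378), and its genotypes overlapped.

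The other 22 B-box genes, BBX1 to BBX19 with BBX26, BBX27 and BBX29, are listed for comparison. Of 19 tested, 2 rose and 9 fell, beside 22.5% and 24.1% of all genes tested, with a median log2 change of -0.25. One of the falls, that of BBX10, rests on 6 reads from the wild type libraries and 0 from the epl1a/b libraries. BBX27 had 721 and 574 in wild type and 64.0 and 52.2 in epl1a/b, 11.0-fold lower (limma adjusted p = 3.98e-06). BBX16 had 2207 and 1883 in wild type and 305 and 263 in epl1a/b, 7.18-fold lower (limma adjusted p = 2.21e-06). In both genes every mutant library was far under every wild type library. The risers were AT2G47890 (log2 change 0.99) and BBX29 (0.57). Of 9 flavonoid genes, 4 rose and none fell, beside the same shares of all genes, and 5 did not pass. The largest rises were those of MYB12, a flavonol regulator (log2 change 1.35), and FLS1, flavonol synthase (1.14).

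Levels of different members were compared per kilobase of exon, as RPKM of the recovered reads. In wild type, BBX24 was highest with a mean RPKM of 189, followed by BBX25 at 87.7, BBX21 at 47.7 and BBX28 at 39.4. A lower tier held BBX22 at 9.85, BBX32 at 8.42, BBX30 at 7.79 and BBX31 at 3.46, and BBX20 at 0.669 and BBX23 at 0.0277 came last. BBX32 and BBX30 could not be ordered, since their wild type libraries overlapped. By genotype mean the order was the same in epl1a/b, where BBX30 (6.91 and 7.14) and BBX31 (6.57 and 7.19) had come level.

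The second comparison set 1 dark library of Col-0 against 1 light library, without a replicate check and without a test. In the dark library BBX20, BBX21 and BBX23 were higher, BBX22, BBX24, BBX25, BBX30, BBX31 and BBX32 were lower, and BBX28 was at about the same level. All 10 members had at least 10 counts over both libraries. Of these, 3 were at least 2-fold higher in the dark, beside 15.7% of 21128 genes with that many counts, and 6 were at least 2-fold lower, beside 19.4%. The median log2 ratio of the members was -1.34, and that of all such genes -0.02. Values are CPM after TMM scaling (counts relative to the size of the library), ratios with a prior count of 2 are named as such, and intervals are 95% Clopper-Pearson intervals of the ratio of reads, which cover counting error only.

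**Figure D3:**
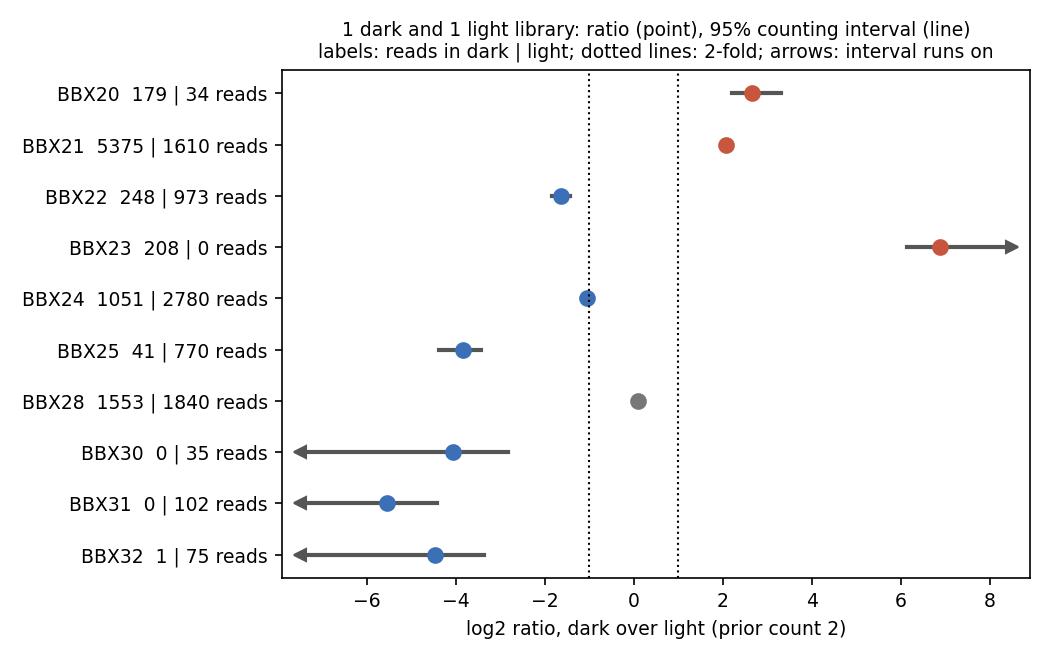
Log2 ratio of dark over light (x axis, prior count of 2) for each B-box gene from 1 library per condition, with the 95% counting interval as a bar, the reads of both libraries in the labels and dotted lines at 2-fold. BBX23 has 208 reads against 0 and BBX31 0 against 102, so their intervals run on as arrows and their points depend on the prior count.

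Of the promoting factors, BBX21 reached 264 CPM in the dark and 62.6 CPM in the light. Its ratio was 4.22 (interval 3.99 to 4.47), with the narrowest counting interval of the members on the log2 scale, from 5375 and 1610 reads. That interval does not cover the choice of scaling. On library totals its log2 ratio was 2.30 instead of 2.08, above the interval (2.00 to 2.16 in log2). BBX20 had 8.80 CPM in the dark and 1.32 CPM in the light, a ratio of 6.66 (interval 4.60 to 9.92). BBX23 was found in the dark library alone, with 208 reads (10.2 CPM) against 0 reads in the light library, where 3 counts would be 0.117 CPM. With 3 counts standing for the 0 of the light library that is at least 87.7-fold higher, and the 95% counting interval of the ratio reaches down to 70.7. BBX22 went the other way, with 12.2 CPM in the dark and 37.8 CPM in the light, a ratio of 0.323 (interval 0.279 to 0.371). On library totals its log2 ratio was -1.40 instead of -1.63, also outside its interval (-1.84 to -1.43 in log2).

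Of the limiting factors, BBX25 had 2.02 CPM in the dark and 29.9 CPM in the light, a ratio of 0.0674 (interval 0.0480 to 0.0923). Its relative BBX24 was less reduced, with 51.7 CPM and 108 CPM and a ratio of 0.478 (interval 0.445 to 0.514). BBX24 lay close to the 2-fold line, and on library totals its log2 ratio of -0.84 was inside it. Both microproteins were undetected in the dark library. BBX30 had 0 reads against 35, at least 9.22-fold lower with 3 counts (0.148 CPM) standing for the 0 of the dark library, and its 95% counting interval reaches down to 7.11-fold. BBX31 had 0 reads against 102, at least 26.9-fold lower by the same floor, and its interval reaches down to 21.5-fold. BBX32 had 1 read against 75, a ratio of 0.0169 (interval 0.000422 to 0.0969). BBX28 had 76.4 CPM in the dark and 71.5 CPM in the light, and its ratio of 1.07 had an interval that included equality (0.998 to 1.14). On library totals its log2 ratio was 0.32 instead of 0.09, above that interval. The median gene was at 0.21 under that scaling.

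By role, 3 of 4 promoting factors were at least 2-fold higher in the dark and 1 was lower, while 5 of 6 limiting factors were at least 2-fold lower and none was higher. Among all genes with at least 10 counts, 15.7% were at least 2-fold higher and 19.4% at least 2-fold lower. BBX24, counted among the 5, was inside 2-fold on library totals. With 1 library per condition, a pattern by role was not tested. Within each library the 4 promoting factors made up 68.0% of the summed RPKM of the 10 genes in the dark and 28.8% in the light. BBX21 alone accounted for 59.8% in the dark and 18.3% in the light, and BBX24 for 12.5% and 33.7%. The same share of the promoting factors was 14.4% and 15.2% in the wild type libraries of the genotype table and 18.0% and 19.1% in epl1a/b. Shares within a library do not depend on its scaling and were read only within each of the separately normalised tables.

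**Figure D4:**
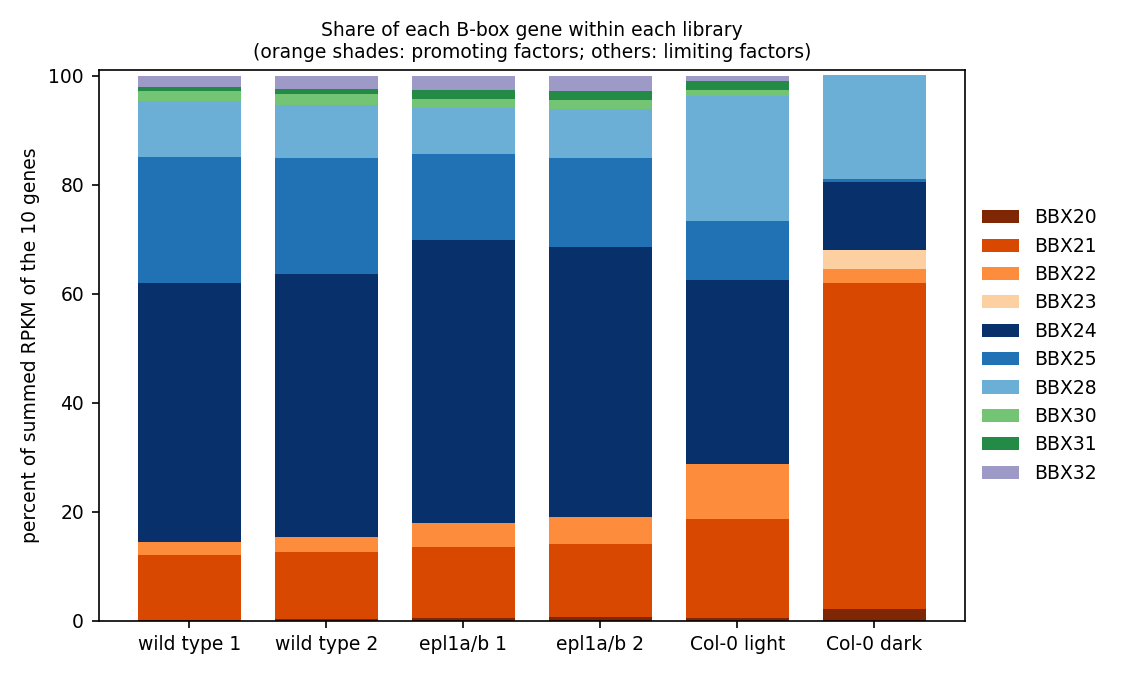
Share of each B-box gene (stacked bars, percent of the summed RPKM of the 10 genes) in each of the 6 libraries, with promoting factors in orange shades at the bottom. Within the genotype table BBX24 takes 47.5% to 51.9% of each bar, and within the dark and light pair BBX21 takes 59.8% of the dark bar and BBX24 33.7% of the light bar.

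The dark and light libraries also differed in genes listed as markers of tissue and stage. Seed storage and oil body transcripts summed to 6921 CPM in the dark and 25.7 CPM in the light, with all 9 genes higher and none at 0 in the dark. The 5 root markers summed to 607 CPM and 111 CPM, and the 3 leaf markers to 6922 CPM and 31960 CPM. Most of the dark leaf sum was RBCS1A, with 6801 CPM in the dark and 21140 CPM in the light. LHCB1.1 had 29.7 CPM and 7209 CPM, and CA1 had 91.0 CPM and 3613 CPM. Less leaf tissue cannot be told apart here from less RNA of these genes per cell. The part of these differences in the B-box ratios was not tested. HY5 itself was 31.8 CPM in the dark and 14.8 CPM in the light (ratio 2.15, interval 1.89 to 2.45), and HYH was 4.13 CPM and 11.7 CPM (ratio 0.353, interval 0.274 to 0.451). COP1 was 24.2 CPM and 36.2 CPM (ratio 0.668, interval 0.598 to 0.746).

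The comparisons shared no library, and side by side they did not sort the members alike. BBX20 was higher in epl1a/b (log2 change 1.82) and in the dark library (log2 ratio 2.66 with a prior count of 2). BBX22, BBX31 and BBX32 were higher in epl1a/b (1.00, 0.99 and 0.42) and lower in the dark library (-1.63, -5.54 and -4.46, the last 2 depending on the prior count). BBX25 was lower in both (-0.38 and -3.84), and the limits of the genotype calls given above hold here too. BBX23, found in the dark library and not detected in the light library, had 2 reads in all across the 4 libraries of the genotype table.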

How the data were processed

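RNA-seq of 6 libraries was analysed. Per the submitters' processing notes HISAT2, featureCounts and edgeR were used on TAIR10; versions, roles and strand settings are not given in the sources used here. Dark and light values were deposited as raw read counts per gene, per the file headers. The genotype table was deposited as a normalised signal, per the file headers. These values could be inverted, through edgeR's library-size equalisation with a common dispersion of 0.00642, to whole reads for 32548 of 32548 genes (100%, tolerance 1e-06).

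Limma 3.58.1 (R 4.3.3; eBayes with trend and robust) was fitted on log2(value + 1), which understates changes of low genes, for the 23658 genes whose value reached 1 in 2 or more libraries, with genotype only as the model and Benjamini-Hochberg adjustment over all genes. edgeR 4.0.16, DESeq2 1.42.0 and limma-voom on recovered reads, other scalings, filters and pseudocounts, and each library left out were alternatives. Dark and light counts were scaled with TMM.

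Members and lists were chosen with earlier results of these data known. The rule named all 10 members, HY5, HYH, COP1, EPL1A and EPL1B, and the 2 largest called rises and falls of each other list. Upstream windows were planned for the BBX24 and BBX25 pair, the microprotein pair and the largest rise and fall; that of BBX25, also the largest fall, is left out because it lies mostly in the neighbouring gene. AT1G06045, BBX9 and BBX10 were named after their values were seen. Exon lengths and windows came from the RefSeq annotation of TAIR10.1, in which 32548 of 32548 table entries were found.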

Additional observations from a re-analysis of the deposited data

How the results depend on the processing

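Counts of calls depended on the settings as follows. On library totals 8749 genes were higher and 3655 lower (5333 and 5707 in the fit reported), 70.5% higher against 48.3%. Under that scaling 6 B-box members were higher and none was lower. Without a filter 1074 genes were higher and 1918 lower, with 1 member higher and 0 lower. Leaving out 1 library gave 2660 to 3689 higher and 3836 to 4147 lower genes, with 1 to 4 members higher and 0 to 1 lower. The members higher were 2 without wild type replicate 1 and 1 without epl1a/b replicate 2, and the number lower was 0 without either of these or without epl1a/b replicate 1. Without a filter no member other than BBX22 was called, and the calls of HY5 (limma adjusted p = 0.0702), COP1 (0.0584) and EPL1A (0.0556) were lost. With the replicate number as a block 4578 genes were higher and 5099 lower, with 4 members higher and 1 lower. Differences between replicates correlated at -0.21 between genotypes. With 2 libraries per genotype this cannot settle whether the replicate numbers pair the libraries. With the pairing crossed, an alternative chosen after seeing the data, 5353 and 5585 genes and 4 and 1 members were called. The other scalings and tests left 3 to 5 members higher and 1 lower. At least 2-fold lower in the dark were 6 members, or 5 on library totals; prior counts of 0.5 and 5 moved the log2 ratio of BBX31 from -7.52 to -4.27. Depth limits BBX20, BBX23, BBX30, BBX31 and BBX32 most. The 2 replicates of a genotype differed by more than sampling noise, with a chi-square per degree of freedom of 6.64 in wild type and 6.92 in epl1a/b. Where a call was lost, the cause was not tested, and the fits that left out a library also had fewer libraries.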
